A study of Arabidopsis thaliana with 56 samples.

Results

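The 8 genes described here encode bZIP TFs of Arabidopsis thaliana, namely ABF1 (AT1G49720), ABF2 (AT1G45249), ABF3 (AT4G34000), ABF4 (AT3G19290), ABI5 (AT2G36270), AREB3 (AT3G56850), EEL (AT2G41070) and DPBF2 (AT3G44460). They were chosen by gene identifier as ABF1 to ABF4, ABI5 and their closest named relatives, and are 8 of the 33016 genes counted in each library. The endogenous genes were followed under 13 TFs and in the empty vector (EV). ABF1 in the ABF1 libraries and ABF3 in the ABF3 libraries were left out, because reads from the transfected plasmid are counted with those of the gene.

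The libraries come from the TARGET assay, in which root protoplasts of Col-0 seedlings aged 10 days express a TF fused to the glucocorticoid receptor, so that dexamethasone (DEX) brings it into the nucleus. All groups, EV included, received 35 µM cycloheximide (CHX), which blocks translation, and then 10 µM DEX, and transfected cells were sorted by fluorescence. There were 47 TF libraries and 9 EV libraries in 3 batches. Batch 1 held ABF1, FBH3, HSFA6A, ZAT6 and EV, batch 2 held DIV2, GBF2, HSFA6A, MYB3, MYBR1, WRKY33 and EV, and batch 3 held ABF3, DREB2A, FBH3, GBF2, GBF3, HB7 and EV, with 3 libraries per group and batch except ABF3, which had 2. Replicates are wells of cells from 1 transfection, so the spread between them and every p-value lack the variation between transfections. EV carried the RFP marker and the TFs RFP or GFP vectors, and which TF library carried which marker is not given in the sources used here. Vector and TF effects therefore cannot be told apart. The plasmid drives each TF in whichever protoplasts took it up, and these bulk samples cannot tell fewer cells of a type from less RNA per cell.

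Total counts per library ran from 8619133 to 29763752 (median 17460033), and 4 loci resembling ribosomal RNA genes took 1.0% to 78.1% of them, which left 5603969 to 23463910 counts for other genes. The gene of each TF was higher in every one of its own libraries than in every EV library of the batch, in all 16 combinations of TF and batch. Levels below are CPM, the counts scaled to a common library size after TMM normalization. Of 12 root markers, SCR (11.3 to 26.2 CPM), APL (13.1 to 25.6 CPM), CASP1 (1.06 to 22.6 CPM) and SUC2 (4.21 to 16.8 CPM) were present in EV. COBL9 and EXPA7 of root hairs did not exceed 0.247 CPM there, the EV medians of GL2, WER, SHR, VND7 and WOX5 lay between 0.0525 and 1.31 CPM, and CO2 of the cortex was at 0 in all 56 libraries. The green-tissue markers RBCS1A, LHCB1.1 and LHCB2.1 did not exceed 0.752 CPM in any library. The seed storage markers CRA1 and SESA1 were at 0 in EV, and over all libraries their highest values were 0.196 and 5.74 CPM.

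Group A bZIP proteins bind as dimers to the ABA-responsive element (ABRE), a DNA word built on ACGTG. In the presence of the hormone abscisic acid (ABA), receptors inhibit PP2C phosphatases, which sets SnRK2 kinases free to phosphorylate these TFs. ABF1, ABF2, ABF3 and ABF4 are known for drought, salt and cold responses of vegetative tissue, and ABI5 for the seed and the arrest of young seedlings, whereas AREB3, EEL and DPBF2 are relatives best known from seeds, where EEL competes with ABI5 at a late-embryogenesis gene.

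The sequence upstream of 5 of these genes is shown because bZIP TFs were among those tested and the presence of the ABRE core differs between the genes that changed. The 250 bases before the annotated start of each gene, from the RefSeq annotation of TAIR10.1 and written 5′ to 3′ on the strand of the gene, carry ACGTG, or its reverse complement CACGT, in capitals.
ABF1, chr1:18399753-18400002, plus strand: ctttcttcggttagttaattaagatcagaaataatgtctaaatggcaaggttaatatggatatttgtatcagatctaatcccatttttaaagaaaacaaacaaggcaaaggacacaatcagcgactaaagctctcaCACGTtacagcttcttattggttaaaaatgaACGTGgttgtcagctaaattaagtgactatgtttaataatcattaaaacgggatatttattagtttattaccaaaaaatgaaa
ABF2, chr1:17167925-17168174, minus strand: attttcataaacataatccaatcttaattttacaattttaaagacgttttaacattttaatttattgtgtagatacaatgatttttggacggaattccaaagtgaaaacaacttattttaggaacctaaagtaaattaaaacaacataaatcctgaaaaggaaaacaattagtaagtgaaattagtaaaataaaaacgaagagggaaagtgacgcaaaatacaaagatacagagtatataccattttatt
ABF3, chr4:16295084-16295333, plus strand: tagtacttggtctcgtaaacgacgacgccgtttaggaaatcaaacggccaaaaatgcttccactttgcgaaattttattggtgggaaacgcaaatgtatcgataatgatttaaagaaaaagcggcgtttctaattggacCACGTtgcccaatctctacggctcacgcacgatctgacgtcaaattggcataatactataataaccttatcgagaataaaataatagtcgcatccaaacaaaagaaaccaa
ABF4, chr3:6686792-6687041, plus strand: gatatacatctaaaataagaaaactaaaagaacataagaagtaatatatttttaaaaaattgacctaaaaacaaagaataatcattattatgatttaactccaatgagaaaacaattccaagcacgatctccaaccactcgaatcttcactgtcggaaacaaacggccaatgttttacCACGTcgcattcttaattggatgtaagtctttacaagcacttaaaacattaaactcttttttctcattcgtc
ABI5, chr2:15207637-15207886, minus strand: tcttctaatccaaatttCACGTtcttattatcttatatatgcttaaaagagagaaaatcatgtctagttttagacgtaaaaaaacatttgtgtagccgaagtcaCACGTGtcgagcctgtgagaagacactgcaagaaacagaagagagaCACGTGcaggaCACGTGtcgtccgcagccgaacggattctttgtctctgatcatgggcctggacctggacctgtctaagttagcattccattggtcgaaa

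ABF1 held ACGTG 2 times, with 78 and 109 bases between the word and the start of the gene. ABF3 held it once, at 106 bases, and ABF4 once, at 67 bases. ABI5 held 7 matches, 6 of which were the overlapping pairs that make 3 copies of the palindrome CACGTG, at 83, 94 and 140 bases. ABF2, AREB3 and EEL had 0 matches in this window, and DPBF2 had 1. Among the same windows of 32793 genes, 21.6% held ACGTG and 5.81% held CACGTG. These are letter matches and not measured binding sites.

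ABF1 lies on chromosome 1 at 18400003 to 18402628, ABF2 on chromosome 1 at 17165125 to 17167924, ABF3 on chromosome 4 at 16295334 to 16298285 and ABF4 on chromosome 3 at 6687042 to 6690123 (TAIR10.1, whose nuclear chromosomes have the lengths of TAIR10). ABI5 lies on chromosome 2 at 15204659 to 15207636, EEL on chromosome 2 at 17129753 to 17132386, AREB3 on chromosome 3 at 21046234 to 21048614 and DPBF2 on chromosome 3 at 16079432 to 16081906. ABF1, ABF3, ABF4, AREB3 and EEL overlap other annotated genes, ABF4 by 2522 bp, EEL by 1164 bp and ABF1 by 743 bp. Whether strand was used in counting is not given in the sources used here, so reads of these genes and of their neighbours may be mixed. None of the 65 pairs of 5 overlapping neighbour genes and 13 TFs was called by edgeR, with 8 at an unadjusted p under 0.05, a lowest FDR of 0.0910, and 1 called by DESeq2. These 5 cover 6 bp of the overlap of ABF4 and 123 bp of that of ABF1, and the other 3 overlapping genes, AT3G03815, AT1G07587 and AT2G09215, were not analysed here.

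In EV cells ABF4 had the highest level per length of the 8 genes and DPBF2 the lowest. ABF4 measured 47.5 to 62.4 CPM over the 9 EV libraries (median 55.6), ABF3 10.9 to 32.9 CPM (median 22.8) and ABF2 9.58 to 21.4 CPM (median 15.4). AREB3 measured 8.52 to 13.5 CPM (median 11.2), ABF1 4.15 to 11.8 CPM (median 8.07), EEL 5.03 to 14.6 CPM (median 6.33) and ABI5 0.785 to 5.85 CPM (median 1.82). The libraries of ABF4 and AREB3 lay close together, whereas those of ABF3 and ABI5 were spread widely. DPBF2 was at 0 in 55 of 56 libraries and had 5 counts in EV replicate 3 of batch 1. A count of 0 allows up to 3 counts, or 0.0890 to 0.421 CPM depending on the library, for counting error only, and DPBF2 did not pass the filter on low counts in any comparison.

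**Figure D1:**
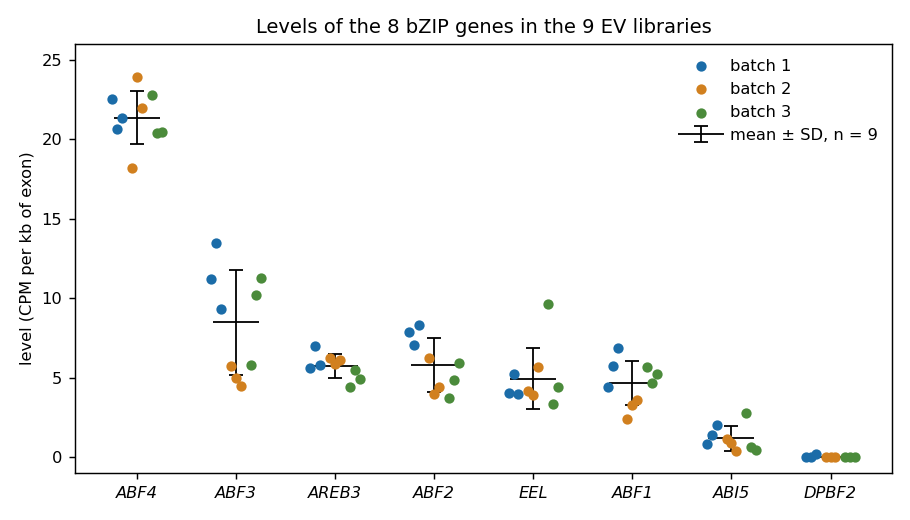
Level of each gene in the 9 EV libraries, in CPM per kb of summed exon length on a linear axis, coloured by batch, with the mean and SD of each gene. ABF4 (mean 21.4) lies above all other genes, ABF3, ABF2, AREB3, EEL and ABF1 overlap between means of 8.49 and 4.66, and ABI5 (1.17) and DPBF2 (0.0245) lie below them.

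Genes were ordered by their level per length, as CPM per kb of summed exon length. ABF4 averaged 21.4 ± 1.67 CPM per kb (SD, n = 9 here and in the next values), ABF3 8.49 ± 3.30, ABF2 5.80 ± 1.69 and AREB3 5.71 ± 0.745 CPM per kb. EEL averaged 4.93 ± 1.90, ABF1 4.66 ± 1.40, ABI5 1.17 ± 0.794 and DPBF2 0.0245 ± 0.0736 CPM per kb. Of 7 neighbouring pairs in the order of mean log2 level, 3 differed beyond their spread by an exact paired sign-flip permutation test, two-sided and with Benjamini-Hochberg adjustment over the 7, in which the smallest p the 9 libraries allow is 0.00391. ABF4 over ABF3 (log2 difference 1.43, 9 of 9 libraries), ABF1 over ABI5 (2.198, 9 of 9) and ABI5 over DPBF2 (5.49 with 0.5 counts added to each gene, 9 of 9) each had an adjusted exact p of 0.00911. ABF3 over AREB3 (0.48, 6 of 9 libraries, adjusted exact p = 0.0957), AREB3 over ABF2 (0.02, 4 of 9, adjusted exact p = 0.887), ABF2 over EEL (0.25, 7 of 9, adjusted exact p = 0.432) and EEL over ABF1 (0.08, 4 of 9, adjusted exact p = 0.779) did not pass the test. The pairs were set by the order of means in the same 9 libraries. The test treats each library as independent, although those of a batch are wells of 1 transfection. ABF4 was highest and ABI5 and DPBF2 lowest in all 3 batches, and the order of the 5 genes between them changed from batch to batch.

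ABF3 was the member called between the EV batches. It measured 14.01, 12.1 and 10.9 CPM in EV of batch 2 and 14.2, 24.99 and 27.5 CPM in EV of batch 3, against 27.4, 32.9 and 22.8 CPM in EV of batch 1. Every batch 2 library lay below every library of the other batches. edgeR's quasi-likelihood F test over the 3 batches called ABF3 (log2 fold change -1.15 for batch 2 over batch 1, FDR 0.0246) and none of the other 6 genes tested, where 11.7% of all 18732 genes passed. With so few members, this call was not set apart from that share by any test. In the same F test, ABF1 (-0.86 for batch 2 over batch 1, unadjusted p = 0.0153, FDR 0.0930) and ABF2 (-0.66, unadjusted p = 0.0181, FDR 0.103) were not called. The FDR of ABF3 was 0.0650 without EV replicate 1 of batch 1, 0.0753 without its replicate 2, and 0.0649, 0.114 and 0.122 without replicate 1, 2 or 3 of batch 2. EV replicate 1 of batch 3 stood apart from its group, with 5.85 CPM of ABI5 against 1.36 and 0.940 CPM, 14.6 CPM of EEL against 5.03 and 6.71 CPM, and 14.2 CPM of ABF3 against 24.99 and 27.5 CPM. Without it the edgeR FDR of ABF3 was 0.000115, and ABF1 and ABF2 were called too (FDR 0.0294 each). Of its counts, 16.8% fell on the loci resembling ribosomal RNA genes, against 3.32% and 2.00% in the other EV libraries of batch 3, and the part of this in its values was not tested. None of the pairs of a member and a TF called below was lost without it.

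Of 102 pairs of a member and a TF, 89 could be tested, and 10 were called at an edgeR FDR under 0.05 (11.2%), 8 induced and 2 repressed, where 6.18% of all gene and TF pairs tested were called. No test set the members, or the ABF genes among them, apart from other genes. The calls fell on ABF1 (5), ABF4 (3), ABF2 (1) and ABF3 (1), under 7 of the 13 TFs. All 13 comparisons share the 9 EV libraries, so calls of different TFs on the same gene are not independent. In all, 26 pairs had an unadjusted p under 0.05.

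The count of members called was read against the share of all genes called under the same TF. Under DIV2, a MYB-family TF, 3 of 7 members were called, against 18.1% of all genes tested. GBF2, a G-box-binding bZIP TF, had 2 of 7, against 10.2%. ABF3 had 1 of 6, against 1.81%, and FBH3, a bHLH TF, had 1 of 7, against 9.7%. HB7, a homeodomain-leucine zipper TF, had 1 of 7, against 5.52%. The MYB TFs MYB3 and MYBR1 had 1 of 7 each, against 10.6% and 11.9%. With so few members these counts were not set apart from the backgrounds by any test.

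The other 6 TFs had 0 calls among the members by edgeR and by DESeq2. ABF1 had 0 of 6 members called, 2 of them with an unadjusted p under 0.05, against 0.495% of all genes. DREB2A had 0 of 7 (1 with p under 0.05) against 2.72%, GBF3 0 of 7 (0) against 0.0157%, and HSFA6A 0 of 7 (1) against 0.0105%. WRKY33 had 0 of 7 (2) against 6.22%, and ZAT6 0 of 7 (1) against 3.19%.

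**Figure D2:**
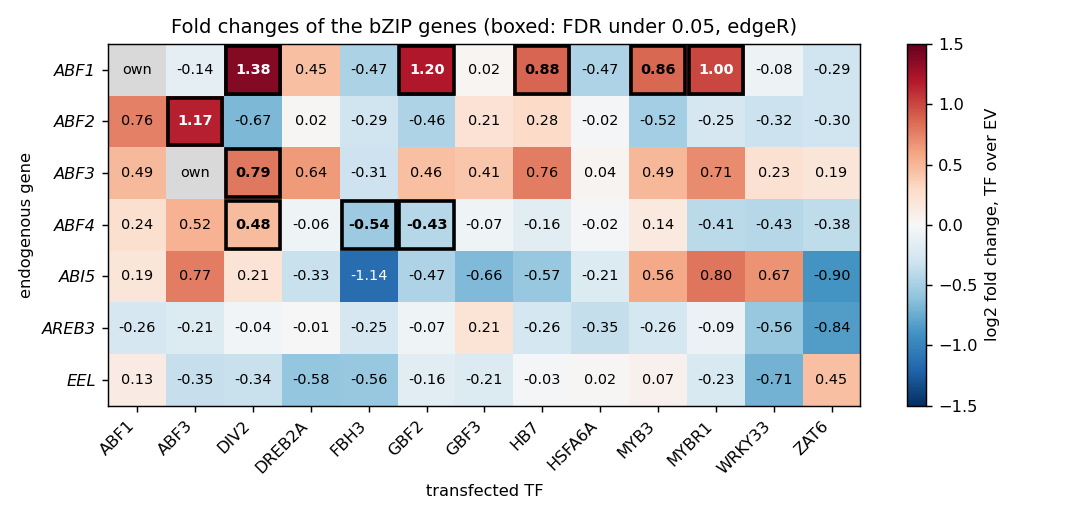
Log2 fold change over EV of 7 members (rows) under each TF (columns), as printed numbers and on a colour scale from blue (negative) to red (positive), with called pairs boxed and a TF's own gene in grey. DPBF2 was not tested. The largest called increase is ABF1 under DIV2 (1.38) and the largest called decrease is ABF4 under FBH3 (-0.54).

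ABF1, an ABRE-binding factor studied for its induction by cold and ABA, was induced under 5 of the 12 TFs tested. It measured 11.9, 10.7 and 18.9 CPM under DIV2, 7.86, 11.5 and 9.79 CPM under MYB3 and 10.7, 9.66 and 11.5 CPM under MYBR1, against 4.15, 5.64 and 6.15 CPM in EV of batch 2. GBF2 gave 15.9, 12.7 and 27.4 CPM in batch 2, and 15.05, 8.39 and 16.6 CPM in batch 3, where EV had 9.79, 8.07 and 9.04 CPM. HB7 gave 14.7, 15.1 and 18.2 CPM in batch 3, against the same EV libraries. No library of DIV2, MYB3, MYBR1, HB7 or batch 2 GBF2 overlapped EV of its batch, and 1 library of batch 3 GBF2 did.

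The log2 fold change of ABF1 over EV was 1.38 ± 0.28 under DIV2 (SE, edgeR FDR 0.00238), 1.20 ± 0.27 under GBF2 (edgeR FDR 0.00543) and 1.00 ± 0.26 under MYBR1 (edgeR FDR 0.0160). It was 0.88 ± 0.22 under HB7 (edgeR FDR 0.0333) and 0.86 ± 0.25 under MYB3 (edgeR FDR 0.0399). Leaving out any 1 library kept the calls under DIV2 (1.08 to 1.52) and GBF2. The call under MYBR1 was lost without EV replicate 1 or 2 of batch 2 (edgeR FDR 0.0878 and 0.0556). That under HB7 was lost without EV replicate 2 of batch 1 (0.0570), replicate 2 of batch 2 (0.0556), replicate 2 or 3 of batch 3 (0.0898 and 0.0686), or HB7 replicate 1, 2 or 3 (0.0849, 0.0988 and 0.165), and with EV of batch 3 alone as control (0.0782), all edgeR FDRs. That under MYB3 was lost without EV replicate 2 of batch 1 (0.0573), replicate 1, 2 or 3 of batch 2 (0.187, 0.101 and 0.0636), or MYB3 replicate 2 or 3 (0.177 and 0.109), again edgeR FDRs.

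EV of batch 2, the batch of 4 of these TFs, held the 3 lowest ABF1 levels of the 9 EV libraries. Against the other TF libraries of the same batch in place of EV, the log2 fold change of ABF1 was 0.49 under DIV2 (edgeR FDR 0.586), 0.71 under GBF2 (0.102), 0.64 under HB7 (0.176), 0.01 under MYBR1 (0.996) and -0.12 under MYB3 (0.998). That control leaves out the ABF1 and ABF3 libraries, and it itself contains TF groups in which ABF1 lay above EV. In the other direction, the lowest mean of ABF1 was 4.91 ± 2.51 CPM under HSFA6A in batch 2 and the highest 18.7 ± 7.72 CPM under GBF2 in batch 2 (SD, n = 3 each). Among the TFs with no call on ABF1, the log2 fold change ran from -0.47 under FBH3 (edgeR FDR 0.143) to 0.45 under DREB2A (edgeR FDR 0.403). HB7 belongs to the homeodomain-leucine zipper TFs, for which the word AATNATT is typical. The ABF1 window shown above held 1 match to it, 39 bases before the start, and 28.9% of all windows held 1 or more. The windows of ABF2 (167 bases), ABF3 (140), ABF4 (164) and AREB3 (51) also held 1 match each, so the word was not particular to ABF1. The pairs of these genes with HB7 were not among the called pairs counted above. ABF3 under HB7 lay near the threshold (0.76, edgeR FDR 0.0519) and was called by DESeq2 (FDR 0.0212). Whether the word bears on any of these changes was not tested.

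**Figure D3:**
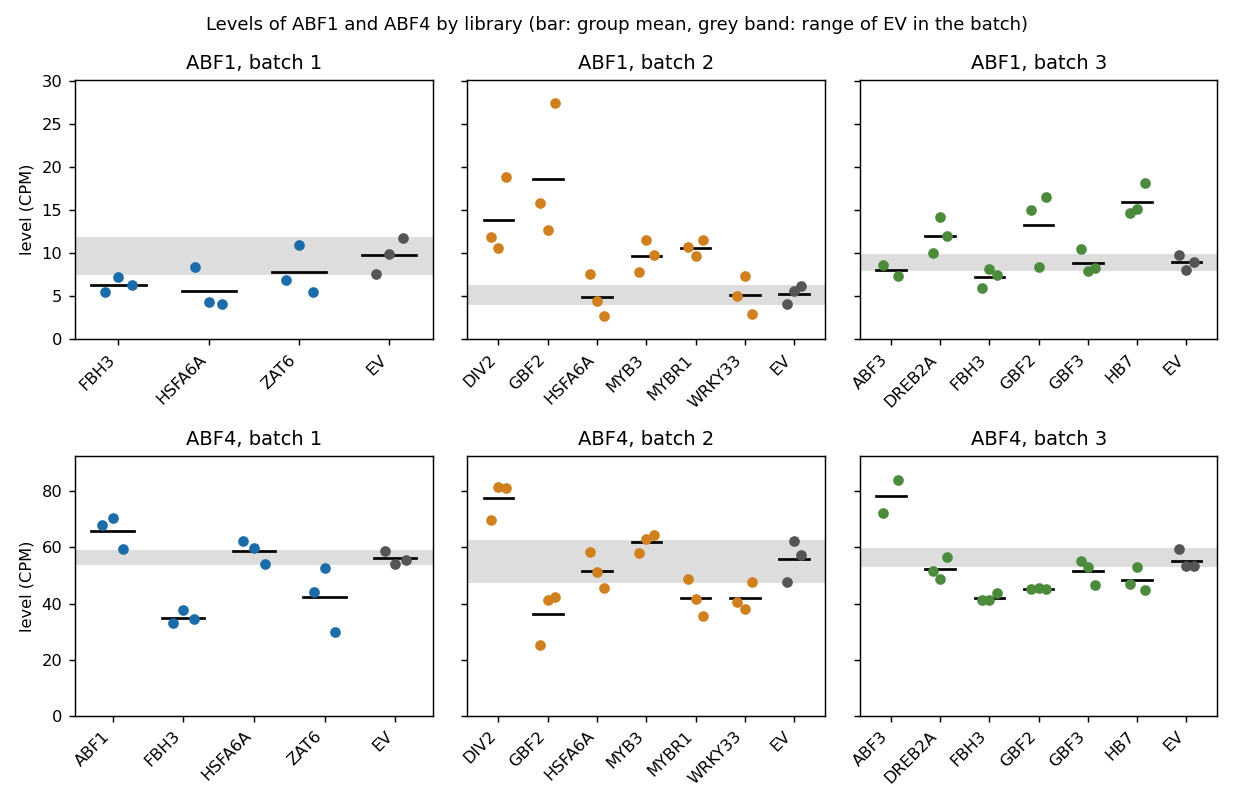
CPM of ABF1 and ABF4 in every library, each TF left of EV of its batch, with a bar at the group mean and a grey band over the EV range, and ABF1 in its own libraries left out. In batch 2 the EV libraries of ABF1 lie at 4.15 to 6.15 CPM, below every library of DIV2, GBF2, MYB3 and MYBR1, and ABF4 under FBH3 lies at 32.9 to 43.8 CPM, below every EV library.

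ABF4, a vegetative ABRE-binding factor that shares much of its role in drought responses with ABF2 and ABF3, was induced under DIV2 and repressed under FBH3 and GBF2. It measured 32.9, 37.6 and 34.4 CPM under FBH3 in batch 1, against 58.7, 53.9 and 55.6 CPM in EV, and 41.1, 41.4 and 43.8 CPM under FBH3 in batch 3, against 59.4, 53.2 and 53.3 CPM in EV. Every FBH3 library thus lay below every EV library, with a log2 fold change of -0.54 ± 0.10 (SE, edgeR FDR 0.000948), or 0.686-fold. The value ran from -0.55 to -0.49 when each library was left out, with no call lost, and was -0.38 against the other TF libraries (edgeR FDR 0.0247).

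GBF2 gave 25.3, 41.4 and 42.2 CPM of ABF4 in batch 2, against 47.5, 62.4 and 57.4 CPM in EV, and 45.2, 45.6 and 45.04 CPM in batch 3, against the EV values above. The groups did not overlap within either batch, and the log2 fold change was -0.43 ± 0.13 (SE, edgeR FDR 0.0340). The call was lost without EV replicate 2 or 3 of batch 2 (edgeR FDR 0.0640 and 0.0795) or GBF2 replicate 1 of batch 2 (0.0516), and with EV of the same batches only (0.0514). DIV2 gave 69.9, 81.6 and 81.2 CPM of ABF4, all above EV of batch 2, with a log2 fold change of 0.48 ± 0.13 (SE, edgeR FDR 0.0156). This call was lost without EV replicate 1 of batch 2 (edgeR FDR 0.105) or DIV2 replicate 2 (0.0678). Under ABF3, the levels of ABF4 were 72.3 and 84.2 CPM, above the EV libraries of batch 3, and the log2 fold change of 0.52 did not pass the test (edgeR FDR 0.0860, or 0.0334 without EV replicate 1 of batch 3). WRKY33 gave the lowest value without a call (-0.43, edgeR FDR 0.0702, or 0.0345 without EV replicate 1 of batch 3 and 0.0484 without EV replicate 1 of batch 2), and MYBR1 gave -0.41 (edgeR FDR 0.0768, or 0.0381 without EV replicate 1 of batch 3 and 0.0359 without MYBR1 replicate 1). Between groups, ABF4 had the narrowest range of the ABF genes, with means 2.24-fold apart.

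ABF2, an ABRE-binding factor of vegetative tissue with a known role in glucose and drought responses, was induced under ABF3. It measured 28.3 and 27.4 CPM in the 2 ABF3 libraries, against 9.58, 12.5 and 15.4 CPM in EV of batch 3, with no overlap. The log2 fold change was 1.17 ± 0.23 (SE, edgeR FDR 0.0187), or 2.24-fold, and 1.09 against the other TF libraries of the batch (edgeR FDR 0.00559). The call was lost without ABF3 replicate 1 or 2 (edgeR FDR 0.151 and 0.110) or EV replicate 2 of batch 3 (0.0519), and with EV of batch 3 alone as control (0.138). In the ABF1 libraries ABF2 measured 40.5, 38.7 and 21.8 CPM, against 20.3, 18.2 and 21.4 CPM in EV of batch 1. All ABF1 libraries lay above EV, replicate 3 by little, and the log2 fold change of 0.76 did not pass the test (edgeR FDR 0.413). It passed at 0.93 (edgeR FDR 0.00567) with the library of lowest depth left out of each group of 3, which in ABF1 was replicate 3. This alternative was chosen after seeing the data and also left a library out of each EV group. Leaving out each library in turn gave log2 fold changes of 0.61 to 0.98, with no call gained. The coding sequences of ABF2 and of the transfected ABF1 or ABF3 share 0 words of 25 bases. ABF1 and ABF4 share 2 such words and 0 words of 50 bases. The read length of the libraries is not given in the sources used here. Under DIV2 ABF2 had its lowest log2 fold change, with 8.21, 12.6 and 2.94 CPM, against 16.1, 10.2 and 11.3 CPM in EV, with overlap (-0.67, edgeR FDR 0.276). Without DIV2 replicate 2 it was called at -1.20 (edgeR FDR 0.0486).

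ABF3, an ABRE-binding factor of drought and osmotic stress responses, was called under DIV2 among the 12 TFs tested. DESeq2 called it also under HB7 and MYBR1, as did edgeR in several of the alternative settings. It measured 24.5, 22.4 and 17.2 CPM under DIV2, against 14.01, 12.1 and 10.9 CPM in EV of batch 2, without overlap. The log2 fold change was 0.79 ± 0.24 (SE, edgeR FDR 0.0325), but 0.20 against the other TF libraries of the batch (edgeR FDR 0.643). The call was lost without EV replicate 1, 2 or 3 of batch 2 (edgeR FDR 0.0538, 0.109 and 0.135) or DIV2 replicate 1 or 2 (0.124 and 0.0989), and EV of batch 2 is the group in which ABF3 was low among the EV batches. HB7 gave 40.8, 37.0 and 32.8 CPM, above the 14.2, 24.99 and 27.5 CPM of EV in batch 3, with a log2 fold change of 0.76 (edgeR FDR 0.0519, or 0.0321 without EV replicate 3 of batch 3). The ABF1 libraries had 36.5, 38.7 and 40.5 CPM, the highest group mean of ABF3 at 38.6 ± 2.02 CPM (SD, n = 3), against 27.4, 32.9 and 22.8 CPM in EV (log2 fold change 0.49, edgeR FDR 0.810). Under MYBR1 the levels were 23.1, 17.4 and 20.0 CPM, above EV of batch 2, with a log2 fold change of 0.71 (edgeR FDR 0.0699, or 0.00698 without EV replicate 1 of batch 3). Of the 11 TFs without a call, 10 gave a positive log2 fold change for ABF3, the exception being FBH3 (-0.31, edgeR FDR 0.405). These comparisons share the EV libraries, so their directions are not independent.

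**Figure D4:**
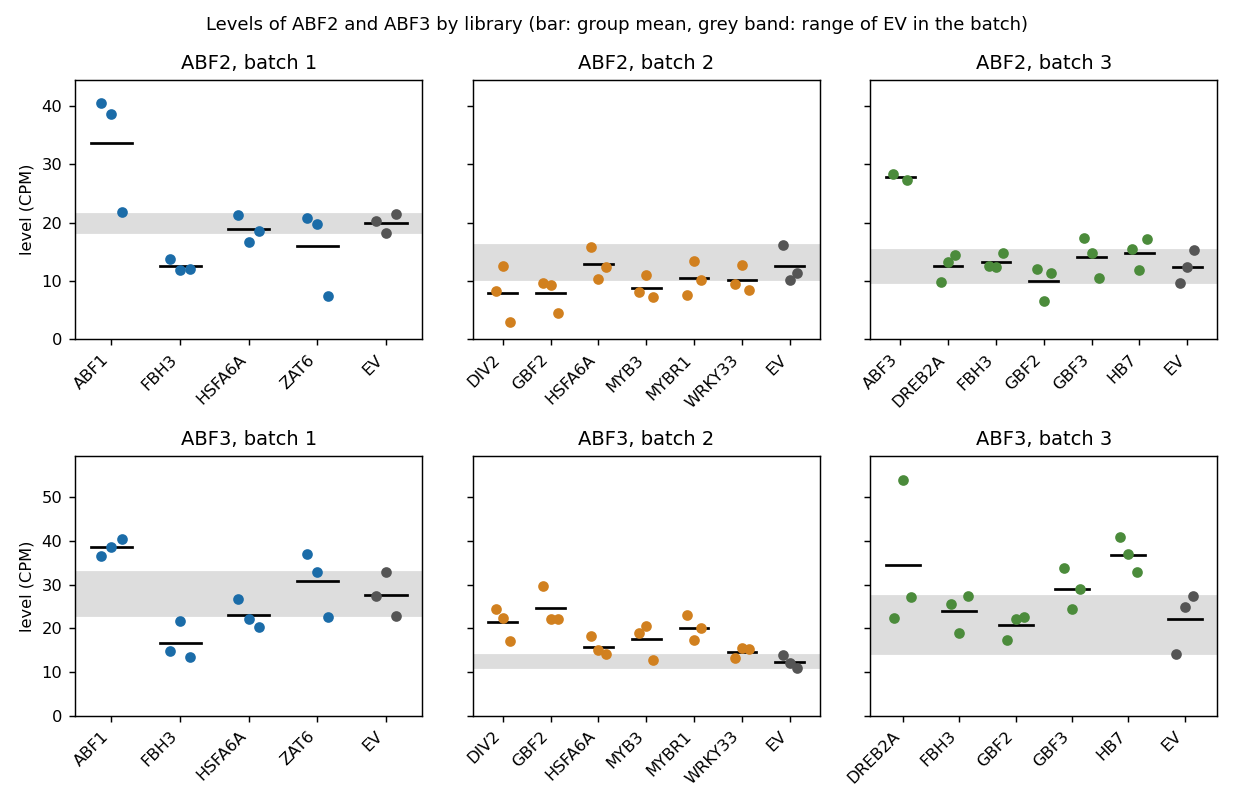
CPM of ABF2 and ABF3 in every library, each TF left of EV of its batch, with a bar at the group mean and a grey band over the EV range, and ABF3 in its own libraries left out. The ABF3 libraries hold 28.3 and 27.4 CPM of ABF2, above the 3 EV libraries of batch 3, and EV of batch 2 is low for ABF3 (10.9 to 14.01 CPM).

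ABI5, AREB3, EEL and DPBF2 are the members best known from seeds. DPBF2 could not be tested under any TF. ABI5, AREB3 and EEL had 0 calls, where 6.18% of all gene and TF pairs tested were called, and no test set them apart from that share or from the other members. ABI5, which arrests growth of the germinating seedling, had 0 calls under 13 TFs by edgeR and by DESeq2, and 1 pair with an unadjusted p under 0.05. Its log2 fold change ran from -1.14 under FBH3 (edgeR FDR 0.197) to 0.80 under MYBR1 (edgeR FDR 0.619). Single libraries moved these limits, to -2.41 under ZAT6 without ZAT6 replicate 1 (edgeR FDR 0.274) and to 1.96 under ABF3 without EV replicate 1 of batch 3 (edgeR FDR 0.0670). Under ABF3, where its group mean was highest at 4.46 ± 1.17 CPM (SD, n = 2), it measured 3.63 and 5.29 CPM, against 5.85, 1.36 and 0.940 CPM in EV of batch 3, with overlap through EV replicate 1. In the ABF1 libraries it measured 4.83, 4.64 and 0.745 CPM, against 1.73, 2.97 and 4.32 CPM in EV. ABF1 replicate 3 was again the low library of its group, as for ABF2. ABF4 and AREB3 were also lowest in it, whereas ABF3 was highest, at 40.5 CPM against 36.5 and 38.7 CPM. In that library 9.36% of the counts fell on loci resembling ribosomal RNA genes, against 32.2% and 30.1% in the other ABF1 libraries, and the part of this was not tested. Its 7 upstream matches to ACGTG are the most among the members.

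AREB3 was lower than EV under 12 of the 13 TFs by fold change, without a call. Its log2 fold change ran from -0.84 under ZAT6 (edgeR FDR 0.170) to 0.21 under GBF3 (edgeR FDR 0.750), and it had 0 calls by edgeR and DESeq2 and 3 pairs with an unadjusted p under 0.05. ZAT6 gave 3.12, 7.33 and 8.77 CPM, against 10.9, 13.5 and 11.2 CPM in EV of batch 1, without overlap. The 13 comparisons share the 9 EV libraries, so these directions are not independent. EEL ran from -0.71 under WRKY33 (edgeR FDR 0.387) to 0.45 under ZAT6 (edgeR FDR 0.640), with 0 calls by either tool and 0 pairs with an unadjusted p under 0.05. Under WRKY33 it measured 4.10, 3.72 and 5.12 CPM, against 6.33, 5.92 and 8.57 CPM in EV, without overlap.

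**Figure D5:**
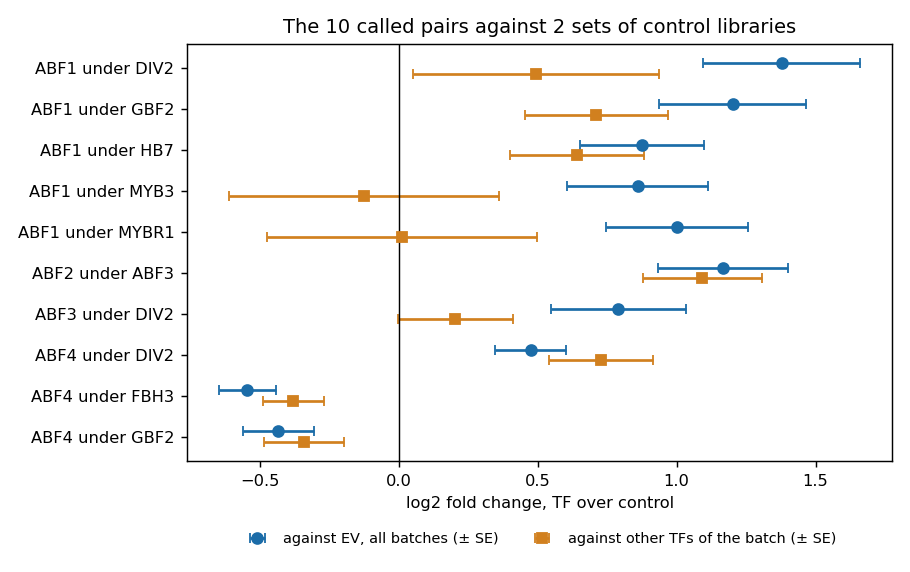
Log2 fold change (± SE) of the 10 called pairs over all EV libraries (circles) and over the other TF libraries of the batch (squares). The other TF libraries used as control leave out those of ABF1 and ABF3. ABF2 under ABF3 (1.17 and 1.09), ABF4 under DIV2 (0.48 and 0.73) and ABF4 under FBH3 (-0.54 and -0.38) passed the test with both EV and other TFs as control, and ABF1 under MYB3 had 0.86 over EV and -0.12 over other TFs.

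The response of a member could be read in 2 batches for FBH3, GBF2 and HSFA6A. For FBH3, ABF4 fell in batch 1 alone (log2 fold change -0.64, edgeR FDR 0.0388) and had -0.39 in batch 3 alone (edgeR FDR 0.261). For GBF2, ABF1 had 1.80 in batch 2 alone (edgeR FDR 0.00477) and 0.61 in batch 3 alone (edgeR FDR 0.356), and ABF3 had 0.99 in batch 2 (edgeR FDR 0.0108) and -0.07 in batch 3 (edgeR FDR 0.935). ABF4 under GBF2 had -0.63 in batch 2 (edgeR FDR 0.0696) and -0.25 in batch 3 (edgeR FDR 0.404). The test of the difference itself, the interaction of TF and batch, called 0 of 21 pairs by edgeR, with 5 at an unadjusted p under 0.05 and 1 called by DESeq2. Among all genes the edgeR interaction passed in 4.88% under GBF2 and 5.76% under HSFA6A, and in 0.0% under FBH3, where 0 of 19338 were called, 1150 had an unadjusted p under 0.05 and DESeq2 called 47. Nearest was ABF3 under GBF2, at -1.08 for batch 3 minus batch 2 (edgeR FDR 0.0877), which passed the test without EV replicate 1 of batch 3 (-1.32, edgeR FDR 0.00604).

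The patterns of the members over libraries were compared as a description only. Over the 51 libraries other than those of ABF1 and ABF3, with log2 CPM centred on each batch, the genes most like ABF1 among 9289 were AT3G27880 (Pearson r = 0.705) and AT3G16800 (0.693), and those most like ABF3 were ACA8 (0.794) and THE1 (0.739). PAP17 (0.728) and ATSIK (0.676) were most like ABF4, CNGC6 (0.615) and AT1G24350 (0.576) most like ABF2, and KAC1 (0.654) and ABCE2 (0.652) most like AREB3. The libraries share their depth, scaling and share of ribosomal RNA, which such correlations also carry. Between members, the highest of 21 correlations was that of ABF1 with ABF3 (0.50) and the lowest that of ABF1 with ABF2 (-0.24).

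Genes that act with these TFs were counted from 5 lists of 48 genes drawn from general knowledge of ABA signalling. Of 556 pairs of a listed gene and a TF, 104 were called by edgeR against EV, 88 induced and 16 repressed, where the pooled share of all genes called was 6.18%. The kinases and phosphatases acting on ABF and ABI5 proteins had 34 induced and 7 repressed of 207 pairs, and the known targets 32 and 5 of 128. Partners and turnover factors of ABI5 had 11 and 3 of 91, and regulators of ABI5 transcription 11 and 1 of 91. The rest of bZIP group A had 0 of 39 pairs called by edgeR or DESeq2, with 4 at an unadjusted p under 0.05.

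Under ABF3 the listed genes that changed were all induced. They were 6 of 10 known targets (median log2 fold change 1.56), 4 of 7 partners and turnover factors (1.62) and 5 of 16 kinases and phosphatases (0.61), where 1.81% of all genes were called and the median of all genes was 0. The 4 partners, AFP1 to AFP4, are known as ABI5-binding proteins that dampen ABA responses, and the 5 of the kinase and phosphatase list, ABI2, PP2CA, HAI1, HAI2 and HAI3, are PP2C phosphatases, which oppose the SnRK2 kinases. These 9 were named after their values were seen. The regulators of ABI5 transcription had 0 of 7 called by edgeR (median 0.02, 2 with an unadjusted p under 0.05, 1 by DESeq2). Under ABF1 the known targets had 2 of 10 called (median 0.67), the kinases and phosphatases 2 of 16 (0.25) and the partners 0 of 7 (0.87, 4 with an unadjusted p under 0.05, 1 by DESeq2), where 0.495% of all genes were called and the median of all genes was -0.01. The regulators had 0 of 7 under ABF1 (-0.02, 1 with an unadjusted p under 0.05, 0 by DESeq2).

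EM6, a late-embryogenesis gene and classical ABI5 target, had the largest increase of the listed genes under both ABF TFs. It measured 78.0 to 124 CPM in ABF3 libraries, against 4.01 to 8.72 CPM in EV of batch 3 (log2 fold change 4.05 ± 0.47, SE, edgeR FDR 0.000273), with no call lost when a library was left out. It measured 26.4 to 78.4 CPM in ABF1 libraries, against 6.04 to 11.8 CPM in EV of batch 1 (2.62 ± 0.48, SE, edgeR FDR 0.0260). The PP2C genes HAI2 and HAI3 measured 268 to 317 CPM and 47.5 to 51.3 CPM in ABF3 libraries, against 13.2 to 53.6 CPM and 1.69 to 10.6 CPM in EV (log2 fold change 2.97 and 2.79, edgeR FDR 0.000951 and 0.00983). HAI1 measured 80.6 to 148 CPM in ABF1 libraries, against 31.3 to 51.5 CPM in EV (1.54, edgeR FDR 0.0298), and PP2CA 180 to 277 CPM, against 69.7 to 92.1 CPM (1.47, edgeR FDR 0.0180). Each of these genes was above EV in every library of the TF. The call of HAI3 was lost without ABF3 replicate 1 or 2 (edgeR FDR 0.0893 and 0.0700). In ABF1 libraries the 3 calls were lost without EV replicate 1, 2 or 3 of batch 1 (edgeR FDR of EM6 0.107, 0.171 and 0.163, of HAI1 0.0878, 0.187 and 0.178, of PP2CA 0.0819, 0.102 and 0.120) or ABF1 replicate 1 or 2 (EM6 0.129 and 0.187, HAI1 0.153 and 0.194, PP2CA 0.0809 and 0.130), and that of HAI1 also without EV replicate 2 of batch 2 (0.0562).

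Across all TFs, ABF1 and ABF3 included, the same lists held genes called under many of them, with the shared EV libraries as control. HAI1 was induced under 6 TFs, HAI3, PP2CA, AFP4, KIN2 and HB12 under 5 each, and BIN2, a kinase known to phosphorylate ABI5, was repressed under 5 TFs. These genes were named after their values were seen. The TFs inducing HAI1 and PP2CA included ABF1 and ABF3, and those inducing HAI3 and AFP4 included ABF3. With the other TF libraries as control in place of EV, 59 of the pairs in the lists were called. The share of all genes called under that control is not given here, so this count cannot be read against a background.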

How the data were processed

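The authors mapped reads to TAIR10 with HISAT2 (2.0.5 in the submitters' processing notes), summed them over genes using GenomicFeatures and GenomicAlignments, and deposited 1 table of unnormalized gene counts per library. From these deposited counts, CPM were computed after TMM scaling over the 56 libraries. For each TF against EV, the quasi-likelihood test of edgeR (4.0.16 in R 4.3.3) was run with TMM, filterByExpr (min.count = 10), an additive batch term and all 9 EV libraries. A gene was called at a Benjamini-Hochberg FDR under 0.05 over all genes tested. The members and lists were chosen with earlier results of these data known. All members and every called pair were named, and from the lists up to 3 called genes per direction under ABF1 and ABF3, and the other listed genes were named after their values were seen. For likeness, the 2 genes most correlated with each member of mean log2 CPM of at least 3 were named. Upstream words were searched on both strands. The fits were tested on simulated data. Alternatives were DESeq2 (1.42.0), its size factors, no filter, other controls, a single model, the replicate number as a block, and each library left out. The control of other TF libraries held none of ABF1 or ABF3.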

Additional observations from a re-analysis of the deposited data

How the results depend on the processing

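The shares of all genes called in the alternative settings are not given here, so gained and lost member calls cannot be read against them. DESeq2's size factors in edgeR kept all 10 called pairs. DESeq2 kept the 10 and added ABF4 under ABF3 and ABF3 under HB7 and MYBR1. A single model over all libraries kept the 10 and added ABF3 under GBF2, HB7 and MYBR1. With other TF libraries as control, 3 induced pairs and 1 repressed pair were called, 3 of the 4 shared with those over EV and ABF4 under ABF3 added. ABF1 under MYB3 had a log2 fold change of -0.12 there. The pathway lists had 59 calls, without a share of all genes beside them, and the cause was not tested. With EV of the same batch only, 1 repressed pair was called, ABF2 under ABF3, ABF4 under GBF2 and ABF1 under HB7 were lost, and ABF3 under MYBR1 was added (edgeR FDR 0.0143). With no filter on low counts, ABF1 under MYB3 was lost (edgeR FDR 0.0594) and ABF3 under HB7 and MYBR1 added. Same-numbered TF and EV libraries had correlations of -0.097 to 0.309, with means per TF and batch of -0.048 to 0.176. Whether the numbers pair the libraries was not tested. With the replicate block, 5 repressed pairs were called, and 8 of the 10 pairs were shared, without ABF2 under ABF3 (edgeR FDR 0.115) and ABF1 under HB7 (0.296) and with ABF2 and ABF3 under MYB3, ABF3 and ABF4 under MYBR1 and ABF4 under WRKY33 added, and the member count between EV batches was 0. Between EV batches DESeq2 called 2 members. The batch interaction, with 0 calls, had 1 by DESeq2, 2 in a single model and 1 with no filter on low counts. The causes were not tested. Leaving out each library in turn gave 4 to 10 induced and 1 to 4 repressed pairs, 0 to 3 members between EV batches, 0 to 1 interaction calls and 3 to 4 neighbours in the EV order. Without the library of lowest depth outside the loci resembling ribosomal RNA in each group of 3, an alternative chosen after seeing the data, 11 pairs were called and 5 of the 10 shared; ABF1 under GBF2, HB7, MYB3 and MYBR1 and ABF4 under GBF2 were lost, and ABF2 under ABF1, ABF4 under ABF3, ABF3 under HB7, ABF3 and ABF4 under MYBR1 and ABF4 under WRKY33 were added. Of the values for single pairs and the member counts of single TFs, 381 kept their direction and side of the threshold, 49 kept the direction and lost the call, 57 moved and 1 reversed. DPBF2 was not tested under any TF. For ABI5 the SE of the log2 fold change ran from 0.50 under HSFA6A to 1.02 under ZAT6. A value of -1.14 under FBH3 was not called (edgeR FDR 0.197), so changes of this size could be missed.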
